A study of Punica granatum with 14 samples.

Results

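The comparison sets 4 paclobutrazol libraries against 4 mannitol libraries, which together are 8 of the 14 RNA-seq libraries of the series. They were chosen by their labels alone, as the columns of 2 paclobutrazol doses (6 and 8 mg/L) and 2 mannitol doses (2.5 and 15 g/L) with 2 plants each, and the difference was taken between the mean of the 2 doses of each chemical. All libraries are from leaves of wild-type "Hongmanao" pomegranate (Punica granatum) seedlings raised from shoot tips in tissue culture, on a medium that also held the auxin indole-3-butyric acid, and harvested after 90 days of treatment. The untreated control (CK, distilled water) and the plants given B9 (daminozide) are not in the contrast. They entered the count filter, the scaling and the estimate of spread between plants, and served as reference levels. The plants were multiplied in culture, and the labels do not say whether those of a condition trace to separate stock plants.

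Paclobutrazol is a triazole that blocks ent-kaurene oxidase, a cytochrome P450 of gibberellin synthesis. Gibberellins promote stem elongation by removing DELLA repressor proteins, so plants given the compound stay short. Mannitol is a sugar alcohol that most plants take up and metabolise slowly, and in a culture medium it lowers the water potential around the tissue. Both are used to slow the growth of cultured shoots, one through a hormone and the other through water. The contrast therefore sets 2 kinds of growth retardant side by side. By the mean heights in the paper, paclobutrazol plants were also shorter than mannitol plants after 90 days. Kind of retardant and degree of dwarfing thus cannot be told apart here. Pomegranate genes are given by their RefSeq symbols and kind of transcript, because the annotation used here pairs no symbol with a product name. For the same reason no pathway is described, and the leaf identity of the samples was not checked against marker genes.

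The 2 plants of 6 mg/L paclobutrazol did not resemble each other, and this touches every result below. Their log2 CPM (counts scaled to a common library size by the trimmed mean of M-values, TMM) correlated across genes with Pearson's r = 0.904, and 7011 of 19478 tested genes were more than 1 apart. In the other conditions compared, r was 0.967 for 8 mg/L paclobutrazol, 0.958 for 2.5 g/L mannitol and 0.973 for 15 g/L mannitol, with 2258, 2297 and 1630 genes more than 1 apart. Total counts ran from 15790717 to 22495926 in the paclobutrazol libraries and from 22882715 to 24132106 in the mannitol libraries, so the 2 chemicals did not overlap in depth. Whether plant 1 of 6 mg/L differs through the plant itself, its culture or its label cannot be told apart here. Several of the counts below are therefore also given without it, though not all that rest on it.

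Under paclobutrazol, 1208 genes were higher and 1079 lower than under mannitol, which makes 2287 differentially expressed genes (DEGs). The background rates over the 19478 tested genes were thus 11.7% for all DEGs, 6.2% for the higher and 5.54% for the lower. To count as a DEG, a gene had to change by over 1 on the log2 scale, with a Benjamini-Hochberg adjusted p under 0.05 in edgeR's quasi-likelihood test. The median log2 fold change was 1.56 for the higher and −1.40 for the lower DEGs, and 0.001 over all tested genes. The change exceeded 2 on the log2 scale in 386 higher and 232 lower DEGs and exceeded 4 in 63 and 33. The fold and an unadjusted p under 0.05 were passed by 3036 genes.

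**Figure D1:**
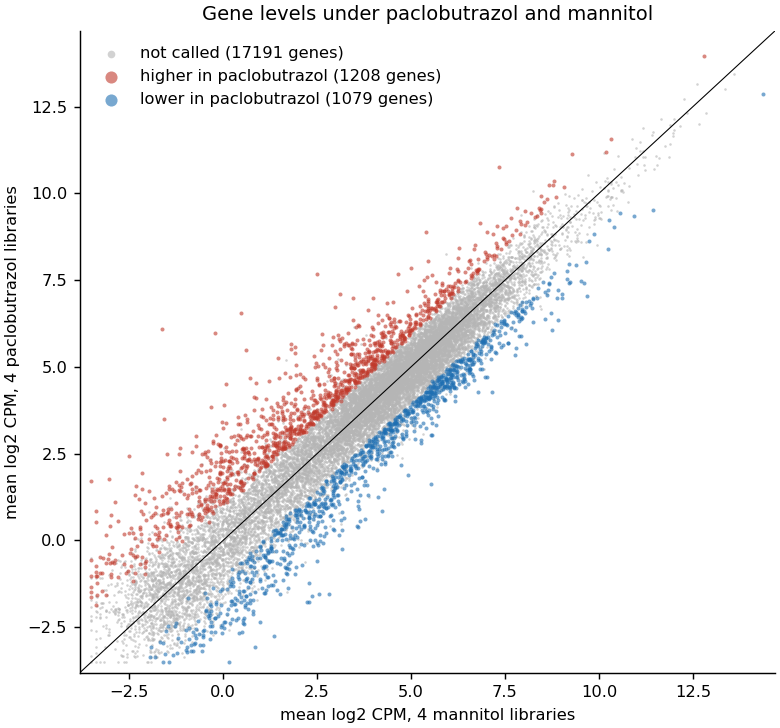
Mean log2 CPM of each tested gene in the 4 paclobutrazol libraries (vertical axis) against the 4 mannitol libraries (horizontal axis), with the line of equal levels. The 1208 higher DEGs lie above the line and the 1079 lower DEGs below it, over the whole range of levels.

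How many genes passed depended strongly on single libraries. The number rose without plant 1 of 6 mg/L paclobutrazol. It fell without any other 1 of the 8 libraries, plant 2 of 6 mg/L among them. The number of DEGs was 4393 without plant 1 of 6 mg/L paclobutrazol and 3962 without both 6 mg/L plants, and 2176 and 1890 of the 2287 DEGs were among them, in the same direction. It was 944 without plant 2 of 8 mg/L paclobutrazol, 1031 without plant 2 of 2.5 g/L mannitol and 751 without plant 2 of 15 g/L mannitol. With edgeR on the 8 libraries alone, 598 genes passed, and 588 of the 2287 DEGs were among them. DESeq2 called 2812 genes with all libraries and 2377 with these 8.

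A stricter view of the plants is whether all 4 libraries of a chemical lie beyond all 4 of the other. Among all tested genes this held for 1681 that were higher (8.63%) and 1421 that were lower (7.3%) in paclobutrazol. Among the DEGs it held for 697 of the 1208 higher (57.7%) and 537 of the 1079 lower (49.8%). In the remaining 511 and 542 DEGs at least 1 paclobutrazol plant lay within or beyond the mannitol range. Without plant 1 of 6 mg/L, the 3 remaining paclobutrazol libraries lay above all mannitol libraries in 4147 tested genes (21.3%) and below them in 4311 (22.1%), shares that 3 libraries against 4 reach more easily. Among the DEGs called without that plant, these were 1626 of 1944 higher (83.6%) and 2078 of 2449 lower (84.9%).

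The 10 higher DEGs with the smallest adjusted p and no overlap between the chemicals were 9 protein-coding genes and 1 long non-coding RNA (lncRNA). LOC116186958, protein-coding, had 78.2 and 94.5 CPM in the 6 mg/L plants and 36.5 and 40.6 in the 8 mg/L plants, against 11.3 and 6.41 at 2.5 g/L mannitol and 6.37 and 6.63 at 15 g/L. Its log2 fold change was 2.92 ± 0.20 (standard error, SE; adjusted p = 0.000909, edgeR), and its 2 CK plants, at 16.3 and 22.6 CPM, lay between the chemicals. Every paclobutrazol plant was thus above every mannitol and CK plant, with the 6 mg/L plants highest. LOC116188207 had nearly the same level in all paclobutrazol plants. It stood at 202, 225, 209 and 219 CPM in the 4 paclobutrazol plants (6 mg/L first) and at 90.9, 95.2, 84.7 and 75.4 CPM in the 4 mannitol plants (2.5 g/L first), a log2 fold change of 1.31 ± 0.13 (SE; adjusted p = 0.00114, edgeR). CK, at 80.7 and 70.9 CPM, lay near mannitol, and the log2 fold change was 1.31 at either paclobutrazol dose.

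The largest change among these 10 was that of LOC116194671, with 75.2, 213, 125 and 133 CPM under paclobutrazol and 11.8, 10.4, 9.98 and 11.2 CPM under mannitol, in the same order of doses and plants. Its log2 fold change was 3.65 ± 0.35 (SE; adjusted p = 0.00114, edgeR), and the B9 plants, at 26.7 to 48.4 CPM, lay between. LOC116188926 showed the opposite order of doses to LOC116186958, with 9.94 and 16.0 CPM at 6 mg/L, 28.4 and 35.0 CPM at 8 mg/L and 2.66 to 5.20 CPM under mannitol (log2 fold change 2.42 ± 0.24, SE). The lncRNA LOC116206399 had 10.3 and 11.5 CPM at 6 mg/L and 4.93 and 6.94 CPM at 8 mg/L, against 1.16 to 2.27 CPM under mannitol, a log2 fold change of 2.33 ± 0.20 (SE). Its CK plants, at 6.13 and 6.47 CPM, lay within the paclobutrazol range and above every mannitol plant. The other 5, LOC116189464, LOC116196211, LOC116203618, LOC116196676 and LOC116205791, had log2 fold changes of 2.29, 2.13, 1.86, 1.37 and 1.32 in this order. All 10 stayed called when any 1 of the 8 libraries was left out, and LOC116203618 alone was not called when they were fitted as 2 groups without dose (adjusted p = 0.0518, edgeR).

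LOC116189464 was the most abundant of these 10 and depended most on dose. It had 1045 and 1278 CPM at 6 mg/L paclobutrazol, 259 and 296 CPM at 8 mg/L and 85 to 168 CPM under mannitol. CK stood at 801 and 546 CPM, between the 2 paclobutrazol doses and above every mannitol plant, so the plants of mannitol and of 8 mg/L paclobutrazol all lay below CK.

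**Figure D2:**
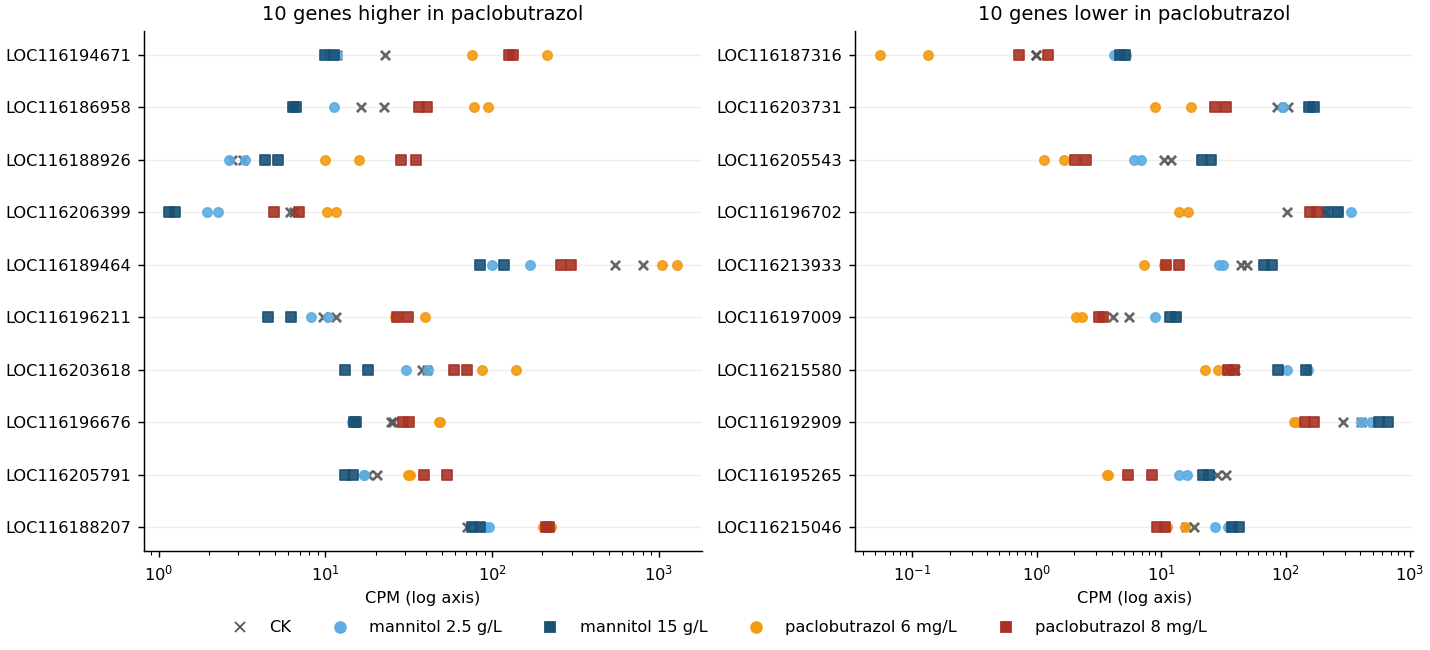
CPM on a log axis in each paclobutrazol, mannitol and CK library for the 10 higher (left) and 10 lower (right) DEGs with the smallest adjusted p and no overlap, 2 points per condition. In each row all 4 paclobutrazol points lie on 1 side of all 4 mannitol points, while the CK crosses lie near either chemical, between them or, in LOC116195265, beyond both.

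The 10 lower DEGs chosen in the same way were all protein-coding. LOC116192909 had the smallest SE relative to its change, with 118, 122, 170 and 145 CPM under paclobutrazol and 405, 483, 664 and 567 CPM under mannitol. Its log2 fold change was −1.93 ± 0.15 (SE; adjusted p = 0.00104, edgeR). CK, at 288 and 402 CPM, and the B9 plants, at 242 to 271 CPM, lay between the chemicals, and the 4 plants of either chemical stayed within a narrow range. LOC116205543 had 1.15, 1.67, 2.04 and 2.51 CPM under paclobutrazol and 6.88, 6.11, 21.3 and 25.0 CPM under mannitol (log2 fold change −2.78 ± 0.22, SE; adjusted p = 0.00104, edgeR). Its CK plants, at 10.6 and 12.1 CPM, lay within the mannitol range. LOC116195265 had 3.67 to 8.40 CPM under paclobutrazol and 14.1 to 24.1 CPM under mannitol, and CK, at 28.2 and 33.5 CPM, was above both chemicals (log2 fold change −1.88 ± 0.18, SE).

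A pair of these genes separated the paclobutrazol doses. LOC116187316 had 0.133 and 0.056 CPM at 6 mg/L and 1.24 and 0.727 CPM at 8 mg/L, against 4.20 to 5.23 CPM under mannitol. LOC116196702 had 14.1 and 16.4 CPM at 6 mg/L, 157 and 177 CPM at 8 mg/L and 218 to 335 CPM under mannitol. Both 6 mg/L plants of either gene were therefore the lowest of the 8, and in LOC116196702 the 8 mg/L plants lay close below the mannitol range. Its log2 fold change was −2.41 with both doses and −0.68 (adjusted p = 0.0736, edgeR) without the 6 mg/L plants, so that call rests on 6 mg/L. When edgeR fitted the 8 libraries as 2 groups without dose, neither gene was called (adjusted p = 0.223 for LOC116196702 and 0.057 for LOC116187316). The other 5, LOC116203731, LOC116213933, LOC116197009, LOC116215580 and LOC116215046, had log2 fold changes of −2.86, −2.15, −2.13, −1.995 and −1.59 in this order, and CK was near mannitol in the first pair and near paclobutrazol in LOC116215580, at 34.4 and 39.6 CPM against 22.5 to 38.4 CPM. All 10 stayed called when any 1 library was left out.

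Some genes were counted under 1 chemical only, or nearly so. In 25 higher and 20 lower DEGs, all 4 libraries of the low chemical had 3 counts or fewer. These are 0.128% and 0.103% of the tested genes, and the number of uncalled genes at the same level is not given here. In 2 DEGs of each direction the low chemical had no count at all. Counts so low do not pass the filter, so these genes were tested only because of their other libraries. The fold values and ratios given for them describe these genes and test nothing. LOC116205106 had no count in any paclobutrazol library and 10, 17, 60 and 29 counts in the 4 mannitol libraries. Its mean CPM under mannitol was 7.84-fold the mean CPM that 3 counts in every paclobutrazol library would give. LOC116203145 had no count in any mannitol library and 12, 3, 32 and 2 counts under paclobutrazol, 4.64-fold the same mean floor in the mannitol libraries. Its CK plants had 10 and 1 counts, and no B9 plant had any. The other gene without a count under mannitol was LOC116213995, with 0, 0.278, 0.299 and 0.794 CPM under paclobutrazol. The call of LOC116203145 was lost, with adjusted p from 0.0548 to 0.104 (edgeR), when any 1 of the 8 libraries except plant 2 of 6 mg/L was left out. LOC116201185 had no count under paclobutrazol and 15, 4, 9 and 1 counts under mannitol, 1.89-fold the mean floor in the paclobutrazol libraries. Neither CK plant had a count of it, while the B9 plants had 18, 18, 10 and 14. Its call was lost without either 8 mg/L plant or without plant 1 of either mannitol dose.

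LOC116195074 and LOC116195075 were both near 0 under mannitol and counted in every paclobutrazol plant. LOC116195074 had 12, 65, 25 and 52 counts under paclobutrazol and 1 count in all mannitol libraries together, a ratio of 187 per scaled library total (95% exact interval 33.1 to 7436). LOC116195075 had 58, 92, 52 and 54 counts under paclobutrazol and 4 counts under mannitol, a ratio of 77.7 (30.0 to 287.5). CK had no count of the first and 2 and 10 counts of the second, so both genes were counted most under paclobutrazol. LOC116197829 had 13, 73, 11 and 12 counts against 3 under mannitol, a ratio of 44.1 (14.7 to 217). LOC116211943 had 379 counts in plant 1 of 6 mg/L, 16, 6 and 10 in the other paclobutrazol plants and 6 under mannitol (83.2, interval 37.9 to 228). Its call was lost without any 1 library except plant 2 of 6 mg/L (adjusted p 0.0546 to 0.114, edgeR). These intervals cover counting error only, not the spread between plants.

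In the opposite direction, LOC116195641 had 2, 2, 3 and 3 counts under paclobutrazol and 20, 14, 21 and 21 under mannitol, a ratio of mannitol to paclobutrazol of 6.26 (95% exact interval 3.22 to 13.6). LOC116187327 had 0, 0, 1 and 2 counts against 32, 7, 11 and 14 (17.6, interval 5.75 to 87.4), and LOC116209495 had 0, 1, 2 and 2 against 34, 23, 6 and 7 (11.5, interval 4.71 to 36.6). CK was low in LOC116195641, with 3 and 8 counts, and high in LOC116209495, with 16 and 40. LOC116206933 had 1, 1, 0 and 0 counts under paclobutrazol and 22, 16, 13 and 7 under mannitol, a ratio of 23.9 (6.32 to 202). LOC116187327 and LOC116209495 were not called in either edgeR fit of the 8 libraries alone (adjusted p 0.0527 to 0.0729) and were called by DESeq2 on them. LOC116210307 had 2, 2, 1 and 2 counts against 34, 15, 14 and 9 (8.47, interval 3.91 to 21.8), and its call was lost without any 1 of the 8 libraries (adjusted p 0.0612 to 0.115, edgeR).

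The largest changes were carried by genes with unequal plants. LOC116206805 had 22.1 and 562 CPM at 6 mg/L and 50.6 and 33.7 CPM at 8 mg/L, against 0.046 to 0.577 CPM under mannitol (log2 fold change 8.86 ± 1.46, SE; adjusted p = 0.00563, edgeR). LOC116201220 had 15.3, 388, 56.1 and 47.3 CPM against 0.232 to 2.80 CPM (6.81 ± 0.96, SE; adjusted p = 0.00345, edgeR). In both, plant 2 of 6 mg/L was highest and plant 1 of 6 mg/L was lowest among the paclobutrazol plants, and both lay above all mannitol plants. LOC116206805 was also high in the 8 mg/L B9 plants, at 192 and 52.9 CPM, and low in those of 6 mg/L B9, at 0.736 and 0.926 CPM. LOC116210119 had no count at 6 mg/L and 1.44 and 0.529 CPM at 8 mg/L, against 4.08 to 5.38 CPM under mannitol, and its 2 CK plants were 1.15 and 14.3 CPM. It was not called without both 6 mg/L plants (adjusted p = 0.093, edgeR).

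LOC116187200 and LOC116214858 also had large fold changes but rested on few counts. The first had 2, 16, 88 and 86 counts under paclobutrazol against 1 under mannitol, and lost its call without plant 2 of 6 mg/L, of 2.5 g/L or of 15 g/L (adjusted p 0.0596 to 0.0624, edgeR). The second had 4 counts in plant 1 of 8 mg/L, none in the other paclobutrazol plants and 19, 70, 39 and 44 under mannitol, and lost its call without plant 2 of 8 mg/L, of 2.5 g/L or of 15 g/L (adjusted p 0.0556 to 0.06, edgeR).

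The most abundant DEG was LOC116203877. It had 16300 and 12230 CPM at 6 mg/L, 4415 and 3583 CPM at 8 mg/L, 14860 and 16170 CPM at 2.5 g/L mannitol and 24200 and 34900 CPM at 15 g/L. The log2 fold change was −1.50 ± 0.31 (SE; adjusted p = 0.0108, edgeR), while plant 1 of 6 mg/L lay within the mannitol range. CK, at 22580 and 18930 CPM, was also within it. LOC116206132 had 1027, 464, 601 and 1034 CPM against 1353 to 5191 CPM under mannitol, with no overlap (−1.85 ± 0.37, SE; adjusted p = 0.00995, edgeR). Both stayed called when any 1 library was left out, but neither was called when edgeR fitted the 8 libraries as 2 groups without dose (adjusted p = 0.177 for LOC116203877 and 0.0563 for LOC116206132).

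The other 4 abundant DEGs each lost their call without some libraries. LOC116205967 had 5072, 15640, 24420 and 32650 CPM under paclobutrazol and 5678 to 10140 CPM under mannitol, with plant 1 of 6 mg/L below the whole mannitol range. Of the 8 libraries, only plant 1 of 6 mg/L could be left out alone without losing the call, and without any other 1 the adjusted p was 0.053 to 0.122 (edgeR). LOC116213630 had 1791, 5696, 2158 and 4012 CPM against 953 to 1579 CPM. It lost its call without plant 2 of any of the 4 doses or plant 1 of 2.5 g/L, with adjusted p 0.0506 to 0.102 (edgeR). LOC116189582 had 2049, 3139, 1544 and 3065 CPM against 807 to 1466 CPM and lost its call without any 1 of 6 libraries, all but plant 1 of either paclobutrazol dose. LOC116209265 had 1588, 318, 775 and 451 CPM against 1525 to 2834 CPM and lost its call without any 1 library except plant 1 of 6 mg/L. Its plant 1 of 6 mg/L lay within the mannitol range, and in LOC116213630 and LOC116189582 the 4 plants of either chemical did not overlap.

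Taken dose by dose, paclobutrazol at 6 mg/L differed from the mean of both mannitol doses in 1394 genes (7.16% of those tested), 942 of them higher and 452 lower. At 8 mg/L it differed in 3202 genes (16.4%), 1505 higher and 1697 lower. The pooled DEGs mostly had 1 direction at both doses, 1204 of 1208 higher and 1061 of 1079 lower, a count that the pooling itself favours. The median log2 fold change of the higher DEGs was 1.58 at 6 mg/L and 1.59 at 8 mg/L, and that of the lower DEGs was −1.13 and −1.68. Compared directly, the 2 doses differed in 291 genes (1.49%), with 111 higher and 180 lower at 8 mg/L. Without plant 1 of 6 mg/L they differed in 746, with 197 higher and 549 lower. Both counts depended on single plants. The count at 6 mg/L was larger without its plant 1 and smaller without its plant 2, and each of these fits had 1 plant at that dose. It was also smaller without any 1 mannitol plant. The count at 8 mg/L was 541 without its plant 1, 220 without its plant 2, and 1349 and 930 without plant 2 of 2.5 or 15 g/L mannitol.

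Plant 1 of 6 mg/L was the paclobutrazol library nearest to mannitol in 817 of the 1208 higher DEGs (67.6%) and 674 of the 1079 lower DEGs (62.5%). Relative to the mean of the 4 mannitol libraries, the higher DEGs had a median log2 CPM of 0.80 in this plant and of 1.90 in plant 2, and of 1.43 and 1.65 in the plants of 8 mg/L. The lower DEGs had medians of −0.73 and −1.94 at 6 mg/L and of −1.52 and −1.78 at 8 mg/L. These DEGs were chosen on the same libraries, so the medians describe them and test nothing.

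The direction of change was then read in libraries that had no part in the call. Genes were called between 8 mg/L paclobutrazol and 15 g/L mannitol in a fit without the other doses of both chemicals, which gave 3742 genes (19.2%), 1749 higher and 1993 lower. In the held-out plants of 6 mg/L paclobutrazol and 2.5 g/L mannitol, 87.9% of the higher genes were higher and 88.7% of the lower genes were lower, where 48.7% and 51.2% of all tested genes were. Plant 2 of 6 mg/L alone gave 92.4% and 88.3%, and plant 1 gave 63.4% and 56.3%.

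With the mannitol doses exchanged, 3868 genes (19.9%) were called between 8 mg/L paclobutrazol and 2.5 g/L mannitol, 1707 higher and 2161 lower. In the held-out plants of 6 mg/L paclobutrazol and 15 g/L mannitol, 65.6% of the higher genes were higher and 85.1% of the lower genes were lower, where 46.6% and 53.4% of all tested genes were. Plant 2 of 6 mg/L alone had the same direction in 80.0% of the higher and 90.2% of the lower genes. Plant 1 had it in 45.0% and 38.7%, below the 48.8% and 51.2% of all tested genes that lay on that side in this plant. Plant 2 of 6 mg/L thus mostly had the direction of the 8 mg/L plants, whereas plant 1 had it somewhat above or below the background, depending on the mannitol dose. Plant 2 and both 8 mg/L plants also shared a trend with gene span, described below, that plant 1 lacked. The shares were not computed with that trend removed.

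Calls made at 6 mg/L and read at 8 mg/L carried over less evenly. Between 6 mg/L paclobutrazol and 15 g/L mannitol, 1072 genes (5.5%) were called, 602 higher and 470 lower. In the plants of 8 mg/L paclobutrazol and 2.5 g/L mannitol, 80.4% of the higher genes were higher, where 52.1% of all tested genes were, but 53.6% of the lower genes were lower, where 47.9% of all were. Between 6 mg/L and 2.5 g/L mannitol only 7 genes (0.0359%) were called, 2 higher and 5 lower, and 2 and 4 of them kept their direction at 8 mg/L against 15 g/L.

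**Figure D3:**
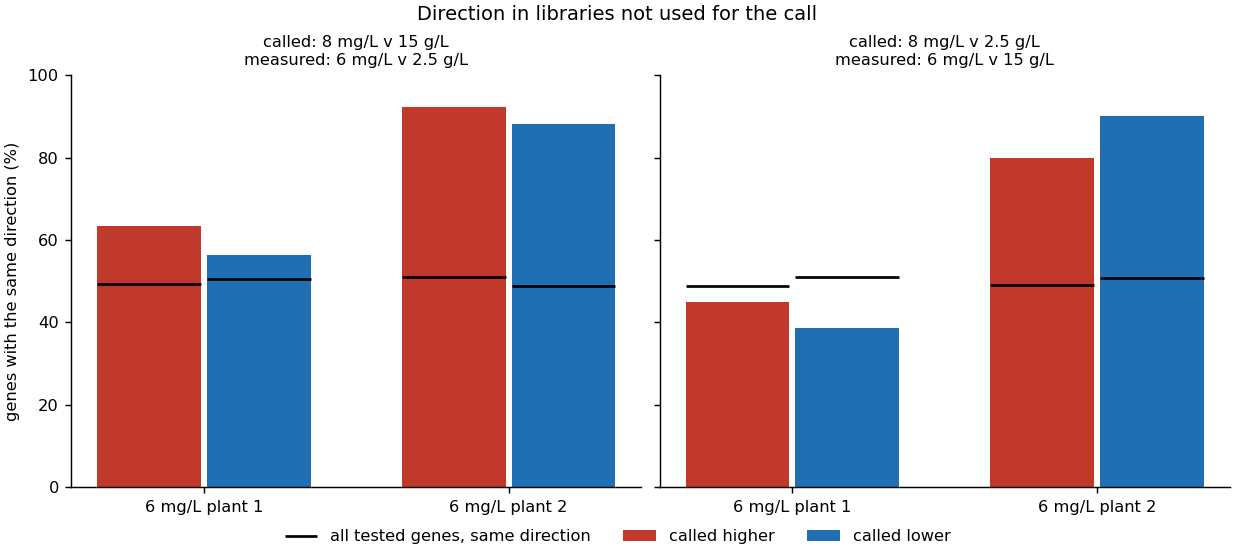
Share of genes called between 8 mg/L paclobutrazol and 1 mannitol dose that had the same direction in each 6 mg/L plant against the other mannitol dose, which the call did not use (vertical axis in percent). Black lines give the share of all tested genes on that side. Plant 2 reaches 80.0% to 92.4%, and plant 1 stays between 38.7% and 63.4%.

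Against CK, the higher DEGs had a median log2 difference of 1.24 for paclobutrazol minus CK and of −0.316 for mannitol minus CK. The lower DEGs had medians of −1.14 and 0.237. Among the 697 higher DEGs without overlap, both CK plants lay below every paclobutrazol plant but not above every mannitol plant in 409 (58.7%). They lay above every mannitol plant but not below every paclobutrazol plant in 143 (20.5%), and between the chemicals in 85 (12.2%). Among the 537 lower DEGs without overlap, CK was above every paclobutrazol plant but not below every mannitol plant in 249 (46.4%), the reverse in 154 (28.7%), and between them in 71 (13.2%). In both directions CK was clear of paclobutrazol alone more often than of mannitol alone. These positions were not counted over all tested genes, and the DEGs were chosen on the same paclobutrazol and mannitol libraries. With plant 1 of 6 mg/L left out, CK has to clear 3 paclobutrazol but 4 mannitol libraries, which favours being clear of paclobutrazol. Without plant 1 of 6 mg/L, CK was clear of paclobutrazol alone in 1204 of 1626 higher and 1574 of 2078 lower DEGs without overlap, and of mannitol alone in 131 and 162.

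The B9 plants stood further toward paclobutrazol than CK did. The median log2 CPM of the higher DEGs relative to the mannitol mean was 0.61 to 0.93 in the 4 B9 plants and 0.26 and 0.37 in the CK plants, and that of the lower DEGs was −0.69 to −0.95 in B9 and −0.23 in both CK plants. Plant 1 of 6 mg/L paclobutrazol, at 0.80 and −0.73, lay within the range of the B9 plants. The other 3 paclobutrazol plants lay beyond every B9 and CK plant in both sets. The mannitol libraries that set the reference level also took part in choosing these DEGs. The B9 plants had more of the trend with gene span, described below, than CK did, and the medians were not computed with that trend removed.

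**Figure D4:**
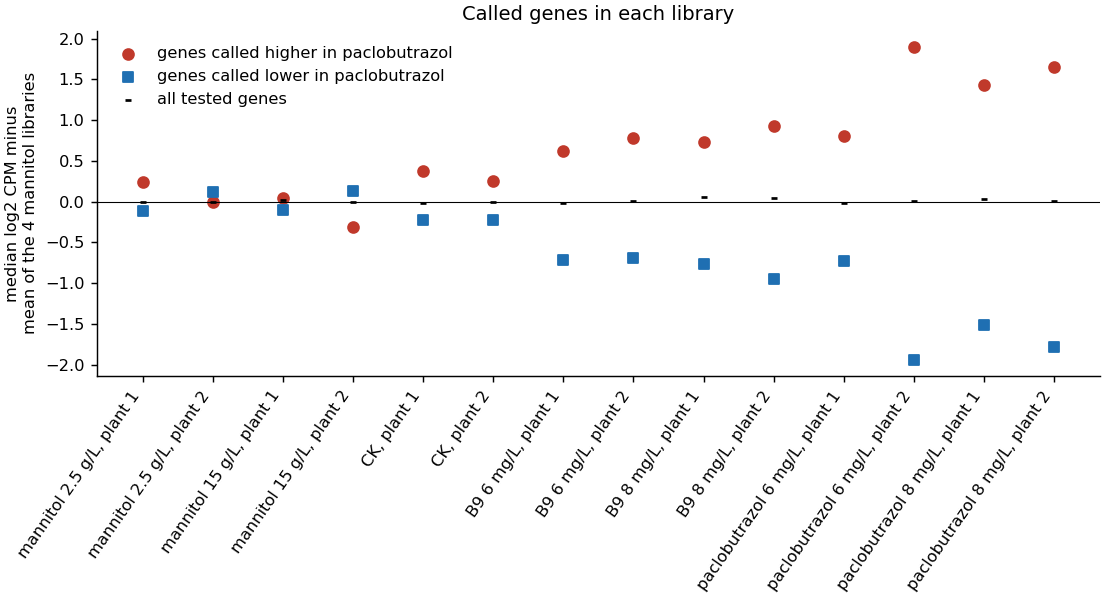
Median log2 CPM, relative to the mean of the 4 mannitol libraries, of the higher DEGs (circles), the lower DEGs (squares) and all tested genes (dashes) in each of the 14 libraries. Plant 1 of 6 mg/L paclobutrazol, at 0.80 and −0.73, sits among the B9 plants, and the other 3 paclobutrazol plants are at 1.43 to 1.90 and −1.52 to −1.94.

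By kind of transcript, 2142 of 18534 tested protein-coding genes were DEGs (11.6%), 1127 higher and 1015 lower. Among 869 lncRNAs tested, 135 were DEGs (15.5%), 78 higher and 57 lower, with a median log2 fold change of 0.121 over all of them. The lncRNA count was 262 without plant 1 of 6 mg/L paclobutrazol and 46 without plant 2 of 15 g/L mannitol, and it moved by over 1.5 times also without plant 1 (86) or plant 2 (58) of 8 mg/L paclobutrazol or plant 2 of 2.5 g/L mannitol (67). The lncRNA LOC116207998 had 20.3, 31.6, 22.1 and 25.0 CPM under paclobutrazol and 8.53, 6.19, 7.74 and 6.49 CPM under mannitol, and CK, at 8.87 and 7.25 CPM, lay with mannitol (log2 fold change 1.77 ± 0.18, SE; adjusted p = 0.00126, edgeR). The lncRNA LOC116200683 had 29.6, 50.4, 66.1 and 70.5 CPM against 12.6 to 21.1 CPM, with CK at 29.8 and 28.1 CPM (1.65 ± 0.19, SE; adjusted p = 0.00213, edgeR). Both stayed called when any 1 library was left out.

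Few small RNA genes were counted enough to be tested, and none of the 11 ribosomal RNA genes tested was a DEG. Of 55 small nucleolar RNA genes 2 were higher and 4 lower, a share of 10.9% that is near the 11.7% of all tested genes. Of 6 small nuclear RNA genes 1 was higher and 1 lower, and of 3 numbered tRNA names 2 were lower. Those 2 sets are too small for their shares to be read. The small nucleolar RNA LOC116206508 had 1.15 and 2.95 CPM at 6 mg/L, 6.07 and 6.94 CPM at 8 mg/L and 7.05 to 9.64 CPM under mannitol, so the 8 mg/L plants lay just below the mannitol range. Its log2 fold change was −1.18 (adjusted p = 0.0168, edgeR) and −0.34 (adjusted p = 0.233) without both 6 mg/L plants. Each of the other tested members named here, LOC116193337, LOC116193393, LOC116193360, LOC116198272, TRNAA-AGC_12 and TRNAC-GCA_1, lost its call without at least 1 library. The spans of LOC116193360 and LOC116193393 overlap another gene, so their counts are uncertain.

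The pooled change went along with gene span, the distance from the start to the end of a gene with its introns. The tested genes were split by span into 5 groups of 3895. In the group with the shortest spans (median 1338 bp) the median log2 fold change was 0.288, and in the group with the longest (median 6564 bp) it was −0.425. Higher DEGs made up 12.1% of the shortest and 2.36% of the longest group, and lower DEGs made up 4.24% and 11.8%. The median span was 2163.5 bp for the higher DEGs, 4426 bp for the lower DEGs and 3136 bp for genes not called. The trend did not hold in every library. Against the mannitol mean, the median log2 CPM of the shortest and the longest group was −0.106 and 0.0581 in plant 1 of 6 mg/L, 0.507 and −0.646 in plant 2, 0.367 and −0.474 in plant 1 of 8 mg/L and 0.406 and −0.64 in its plant 2. The B9 plants of 8 mg/L, at 0.316 and 0.379 for the shortest and −0.284 and −0.393 for the longest, also showed it. Plant 1 of 15 g/L mannitol differed from the other mannitol plants by 0.142 and −0.147. Without plant 1 of 6 mg/L, higher DEGs made up 19.4% of the shortest and 3.52% of the longest group, and lower DEGs 6.44% and 30.3%. When each library's trend with span was removed, 1875 genes were DEGs, 1011 higher and 864 lower, and 1524 of the 2287 were among them. Of the genes named by rule, 47 of 52 kept their call. What share of the DEG count goes with span was not tested beyond this removal.

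**Figure D5:**
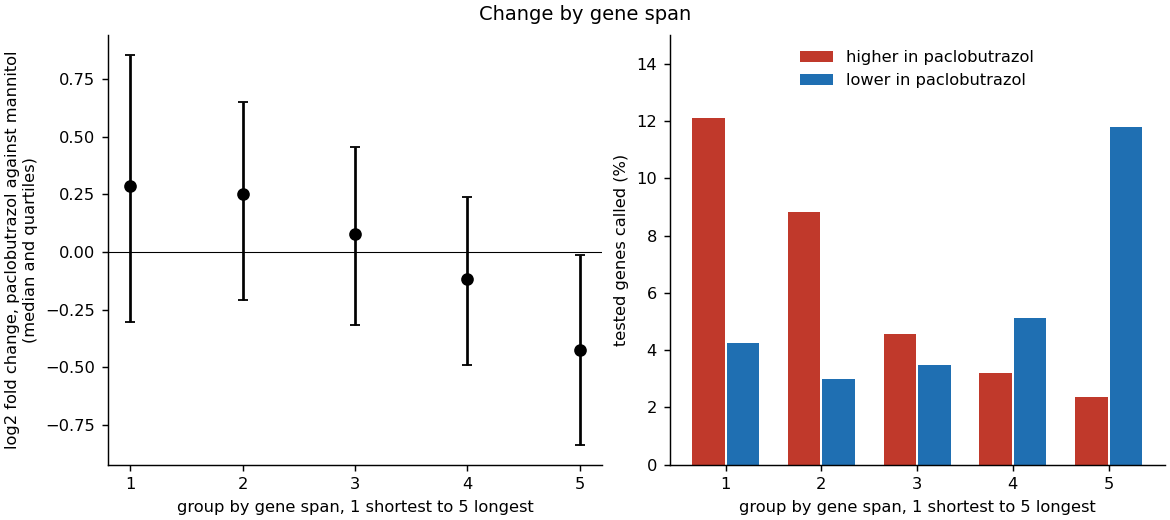
Left, log2 fold change of paclobutrazol against mannitol in the 5 groups by gene span, with medians as points and quartiles as bars. Right, percent of tested genes called in each group. The median goes from 0.288 in the shortest to −0.425 in the longest group, and higher DEGs give way to lower DEGs.

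In the RefSeq order of tested genes, the next gene was called in the same direction for 107 of 1193 higher DEGs (8.97%, where 6.19% of genes in that order were higher DEGs) and for 71 of 1063 lower DEGs (6.68%, against 5.52%). Among the DEGs called without plant 1 of 6 mg/L, the same was so for 253 of 1922 higher (13.2%, against 9.98%) and 357 of 2418 lower (14.8%, against 12.6%). The next gene was thus called in the same direction more often than tested genes overall in either set, a difference that was not tested. There were 17 runs of 3 or more neighbours in 1 direction, 11 higher and 6 lower, and the longest had 5 genes. How many such runs a random gene order would hold is not given here, so the number is a description only. The genes of these runs are named after their values were seen.

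The longest higher run held LOC116187583, LOC116187584, LOC116187585, LOC116189394 and LOC116189396. LOC116187584 had 2.31 CPM in plant 1 of 6 mg/L, 52.5 CPM in plant 2 and 59.6 and 72.2 CPM at 8 mg/L, against 2.46 to 8.28 CPM under mannitol. LOC116187583 had 0.444, 5.45, 6.07 and 8.47 CPM against 0.556 to 0.907 CPM. In both, plant 1 of 6 mg/L lay below every mannitol plant and the other 3 paclobutrazol plants lay above all of them. The longest lower run, LOC116195301, LOC116195304, LOC116195305, LOC116195307 and LOC116195309, had plant 1 of 6 mg/L apart from the other paclobutrazol plants as well. LOC116195305 had 20.5 CPM in plant 1 of 6 mg/L and 0.926 to 1.99 CPM in the other paclobutrazol plants, against 12.7 to 23.6 CPM under mannitol, and LOC116195304 had 24.2 CPM against 2.67 to 3.70 CPM in the others and 15.0 to 23.9 CPM under mannitol. Plant 1 lay above the mannitol range in LOC116195304, within it in LOC116195305, LOC116195307 and LOC116195309, and below it, at 2.80 CPM against 4.56 to 8.07 CPM, in LOC116195301.

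Other runs held in every plant. LOC116213633, LOC116213634 and LOC116213636 were lower in all 4 paclobutrazol plants than in all mannitol plants. LOC116213634 had 4.97, 5.28, 13.6 and 12.2 CPM against 60.5, 25.3, 49.1 and 61.7 CPM, a log2 fold change of −2.58 ± 0.30 (SE; adjusted p = 0.00213, edgeR). LOC116210418, LOC116211570, LOC116212352 and LOC116212354 were higher in all 4 paclobutrazol plants. LOC116210418 had 45.2, 18.8, 115 and 31.4 CPM against 1.88 to 6.41 CPM (3.67 ± 0.48, SE; adjusted p = 0.00283, edgeR). Neighbouring genes can be near-identical copies, and reads that fit more than 1 place were removed before counting, so the counts of such copies are uncertain.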

How the data were processed

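Leaf RNA from 14 seedlings was sequenced by the authors from libraries made with an Illumina kit, with 2 plants per condition, and the groups were taken from the sample labels. Reads that passed quality control were mapped by the authors to a published P. granatum reference genome with HISAT2, those placed at 1 locus were kept, and the deposited values are raw counts per gene from featureCounts. Program versions, the name of the assembly and the use of strand are not given in the sources used here, so overlapping and antisense genes are uncertain. Of 27893 genes, 27509 symbols matched the RefSeq table of assembly ASM765513v2, which was used for transcript kind, gene span and gene order, and 384 tRNA names did not. The planned lists by protein signature or product name and the promoter motifs were not run, since no such annotation was used here.

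Genes were filtered with filterByExpr (minimum count 10) over all 14 libraries, which kept 19478 genes, while 4662 had no count in any library. The fits of 8 libraries used the same filtered genes. Counts were normalized by TMM and fitted with edgeR 4.0.16 in R 4.3.3, as 7 condition means over 14 libraries, with 7 residual degrees of freedom. The biological coefficient of variation was 32.2%, and the median SE of the contrast was 0.243. Log2 CPM used a prior count of 2. Comparisons were tested with the quasi-likelihood F test and Benjamini-Hochberg adjustment over all tested genes. SE is the absolute log2 fold change divided by the root of F. P-values measure only the spread between these plants. A gene with 3 counts or fewer in each library of a chemical was taken as at the floor. The fits were tested on simulated data.

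Named genes are the 10 DEGs per direction with the smallest adjusted p and the 5 with the largest change, both among DEGs without overlap; up to 5 at the floor; the 3 most abundant; up to 3 of each transcript kind; and members of sets of 5 or fewer. The members, lists and alternatives were chosen with earlier results of these data known. The calls with held-out doses, the medians by span in each library and the counts without plant 1 of 6 mg/L beyond those of DEGs were added after seeing the data. Alternatives were DESeq2 1.42.0, fits of 8 libraries, other scalings and filters, the adjusted p alone, a replicate block, removal of the span trend, and leaving out libraries.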

Additional observations from a re-analysis of the deposited data

Results flagged for a closer look

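In 6 of 101 groups of 4 libraries of the named genes, 1 library stood apart from the other 3 by Dixon's test at 95%. Chance gives this in about 1 of 20 groups of like values, but each group here mixed 2 doses. For LOC116187200, LOC116195074, LOC116214858 and TRNAA-AGC_12 the other 3 libraries had no count, so any count in the remaining library would be flagged. Plant 1 of 2.5 g/L mannitol was the highest mannitol library for LOC116186958 (log2 CPM 3.51) and the lowest for LOC116203731 (6.59). The same plant held the only count under mannitol of LOC116187200 (−2.95) and of LOC116195074 (−2.95). Plant 1 of 8 mg/L held the only counts under paclobutrazol of LOC116214858 (−1.80), and plant 1 of 6 mg/L those of TRNAA-AGC_12 (−1.69).

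The change against mannitol differed between the paclobutrazol doses in 3 named genes by edgeR's quasi-likelihood test. The log2 change at 8 minus 6 mg/L was 3.28 for LOC116187316 (adjusted p = 0.0206), −2.07 for LOC116189464 (adjusted p = 0.0198) and 3.46 for LOC116196702 (adjusted p = 0.00358). In each, both 6 mg/L plants were further from mannitol than both 8 mg/L plants.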

How the results depend on the processing

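DESeq2 on all libraries moved the 6 mg/L count to 2118 and no other count by over 1.5 times. edgeR on the 8 libraries gave 598 DEGs (366 higher, 232 lower), 189 at 6 mg/L and 216 at 8 mg/L, and as 2 groups without dose it gave 431 (299 and 132), with 35 and 28 lncRNAs. The adjusted p alone gave 5152 DEGs (2716 and 2436), 2268 at 6 mg/L and 5534 at 8 mg/L. Without both 6 mg/L plants there were 3962 (1852 and 2110). Leaving out each library in turn gave 751 to 4393 DEGs, 410 to 1944 higher, 341 to 2449 lower, 344 to 4846 at 6 mg/L and 220 to 3962 at 8 mg/L. A condition left with 1 plant was then assumed to vary like the others. Other scalings, the filters and removal of the span trend kept these counts within 1.5 times, except that 78 lncRNAs rather than 135 were DEGs with a mean of at least 50 counts.

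Replicate numbers are shared by all conditions, but no label says that they mark a batch. Deviations of same-numbered plants correlated from −0.285 to 0.353 over 6 pairs of conditions, and the replicate block gave 2188 DEGs (1066 higher, 1122 lower). Of 1021 values of the 52 named genes under the alternatives, 872 were still called, 149 were not and 0 were reversed, and 27 genes were called under every alternative in which they were tested. The named genes were chosen as DEGs on the libraries that the alternatives reuse, so kept calls and a lack of reversals were favoured in advance. With 2 plants per condition, small changes could not be told from the spread between plants, and genes of few counts are limited by depth.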
